A study of Mus musculus with 6 samples.

Results

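Ninein and 6 other large scaffold proteins of the centrosome were followed at the transcript level in sorted cardiac macrophages of mice lacking the lysosomal protease legumain (Lgmn KO) and in those of the wild type (WT). The members are Nin, Ninl, Cep250, Pcnt, Cdk5rap2, Akap9 and Cep170, taken by gene name, and all 7 were found among the 34745 genes of the deposited table. Both groups were C57BL/6 mice aged 8 weeks, and the series places all samples after myocardial infarction, although the labels mention ligation of the coronary artery and sham surgery without assigning either to an animal. Stains on the digested heart cells were CD64, CD45 and CD11b, which mark macrophages, leukocytes in general and myeloid cells. There were 3 libraries of each group, numbered 1, 2 and 4 for Lgmn KO and 1, 2 and 3 for WT. The labels do not say how the Lgmn allele was made, whether the loss was limited to some cells, or whether the libraries are from different animals, and the spread between libraries may be technical. Nin was already known to be higher in Lgmn KO in these libraries when this group of genes was put together. The Lgmn KO against WT values of the members are therefore a description without a test.

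The centrosome is a pair of centrioles inside a protein matrix, and it is the main site from which microtubules grow in many animal cells. Its matrix proteins hold the gamma-tubulin ring complexes that start microtubules, while appendages of the older centriole anchor the minus ends. In phagocytes these microtubules are the tracks along which the motor dynein carries phagosomes and lysosomes toward the cell centre. Ninein sits on the subdistal appendages, anchors minus ends there and also acts as an adaptor that links dynein to its cargo.

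The transcript start sites of Nin are shown first, because the counts are given per gene and do not say which start the reads came from. Nin lies on the minus strand of chromosome 12 (ENSMUSG00000021068, 70011435 to 70111925 in the table, mouse build GRCm38) and is protein coding. GENCODE M21 lists 17 transcripts for it, of which 7 are protein coding. RefSeq (GRCm38.p6) gives 3 windows for Nin and 1 for its relative Ninl, each from 250 bases before to 50 bases after a start site. They are printed 5′ to 3′ on the minus strand, with matches to CACGTG (the E-box core), CCAAT (the core of NF-Y sites) and TTTGAA (the core of the cell cycle homology region) in capitals, on either strand.
Nin, chr12:70111986-70112285: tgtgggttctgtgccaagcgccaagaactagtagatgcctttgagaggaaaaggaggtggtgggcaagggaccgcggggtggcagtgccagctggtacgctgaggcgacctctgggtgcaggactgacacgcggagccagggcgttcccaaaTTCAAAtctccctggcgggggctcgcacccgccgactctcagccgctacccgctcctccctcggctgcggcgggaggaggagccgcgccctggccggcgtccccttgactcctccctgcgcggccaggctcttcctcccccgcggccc
Nin, chr12:70111580-70111879: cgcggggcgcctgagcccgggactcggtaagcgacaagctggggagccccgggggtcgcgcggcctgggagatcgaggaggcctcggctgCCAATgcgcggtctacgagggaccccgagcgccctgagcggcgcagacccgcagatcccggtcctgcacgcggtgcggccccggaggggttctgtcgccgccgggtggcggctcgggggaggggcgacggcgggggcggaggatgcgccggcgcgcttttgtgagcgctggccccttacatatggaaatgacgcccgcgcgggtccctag
Nin, chr12:70102805-70103104: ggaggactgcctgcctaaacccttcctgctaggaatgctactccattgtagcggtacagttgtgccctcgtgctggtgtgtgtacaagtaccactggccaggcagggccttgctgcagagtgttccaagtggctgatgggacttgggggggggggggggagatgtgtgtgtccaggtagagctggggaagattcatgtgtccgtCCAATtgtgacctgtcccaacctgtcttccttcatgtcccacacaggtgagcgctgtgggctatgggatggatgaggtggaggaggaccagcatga
Ninl, chr2:151009349-151009648: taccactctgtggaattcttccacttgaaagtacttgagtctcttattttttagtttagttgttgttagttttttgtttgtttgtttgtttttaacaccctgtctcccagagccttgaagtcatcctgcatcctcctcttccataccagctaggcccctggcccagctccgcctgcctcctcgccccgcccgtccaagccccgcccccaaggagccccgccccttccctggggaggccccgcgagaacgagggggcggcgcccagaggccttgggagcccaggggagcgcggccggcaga
The first Nin window, from 70111986 to 70112285, lies wholly beyond 70111925, where the interval of Nin in the table ends. This window holds TTTGAA on the opposite strand, and the other 2 Nin windows each hold CCAAT. The first base of each match lies 98, 160 and 46 bases before its start site. The Ninl window holds no match. Over the 10 windows of the 7 members, 4 held CCAAT, 3 held TTTGAA and 0 held CACGTG. Among all 32851 windows of the RefSeq table these motifs were found in 37.4%, 17.9% and 7.15%. The first 2 Nin windows are rich in G and C, at 68.7% and 75.0% in the order printed, and the last one has 57.7%, beside a median of 52.7% over all windows. A match describes the letters only.

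Total counts per library lay between 19546253 and 24086976, and 12546 genes passed the filter on low counts. The gene Lgmn was at 78.7, 88.5 and 83.5 CPM (counts scaled to a common library size with TMM factors) in Lgmn KO replicates 1, 2 and 4, against 2205, 2692 and 2277 CPM in WT replicates 1, 2 and 3, so it was low in each library labelled Lgmn KO. The labels do not give the deleted part of Lgmn. The summed level of the 9 macrophage markers was 20190 to 23490 CPM in Lgmn KO and 21580 to 23260 CPM in WT. Lyz2 alone made up 13810 to 18010 CPM of these sums. Of the 9, 0 passed edgeR's quasi-likelihood test over all genes, but 6 had an unadjusted p under 0.05, all with lower levels in Lgmn KO, where 17.5% of all tested genes had such a p. DESeq2 called 2 of them, Csf1r and Cd14. Over all the genes each tested, edgeR called 0.789% and DESeq2 5.67%. The median log2 fold change of the list was -0.36, and Fcgr1, the gene of the stained CD64, was at 78.2, 85.8 and 123.4 CPM in Lgmn KO against 114.4, 311.1 and 184.6 CPM in WT (log2 fold change -1.09, adjusted p = 0.17, edgeR quasi-likelihood test). These marker genes were named after their values were seen. The 9 T and NK cell markers summed to 0.296 to 0.990 CPM in Lgmn KO and 3.75 to 8.84 CPM in WT, and 1 of them was at 0 counts everywhere. The 6 dendritic cell markers summed to 3.21 to 5.09 and 5.31 to 15.6 CPM, the 7 fibroblast markers to 45.5 to 116.9 and 132.3 to 180.5 CPM, and the 7 endothelial markers to 178.2 to 235.1 and 153.6 to 208.3 CPM. Only 2 of the T and NK cell markers, 4 dendritic, 5 fibroblast and 4 endothelial ones had enough counts for edgeR's test. With it 1 dendritic marker (Zbtb46) and 1 endothelial marker (Flt1) passed, both lower in Lgmn KO, and 0 passed in the T and NK and the fibroblast lists, where 2 and 4 had an unadjusted p under 0.05. DESeq2, which tested more genes, called 4 T and NK cell markers (Cd3e, Cd3g, Lck and Nkg7), 2 endothelial (Flt1 and Pecam1), 1 dendritic (Zbtb46) and 1 fibroblast marker (Dcn), all lower in Lgmn KO. The sums were 1.94 to 2.73 and 1.996 to 5.38 CPM for 4 B cell markers, 200.1 to 229.3 and 169.1 to 199.0 CPM for 6 neutrophil markers, 3.36 to 4.50 and 3.38 to 4.82 CPM for 7 cardiomyocyte markers and 8.49 to 15.7 and 9.51 to 20.98 CPM for 4 mural cell markers. Csf3r alone made up 178.8 to 208.9 and 149.1 to 180.8 CPM of the neutrophil sums. Vwf alone made up 154.2 to 204.0 and 117.0 to 166.3 CPM of the endothelial sums. These sums therefore mostly follow 1 gene each, named after its values were seen. The part of the macrophage markers and of other cells in the values of the members was not tested. The 15 markers of cycling cells summed to 52.7, 82.3 and 78.3 CPM in Lgmn KO against 83.6, 125.2 and 96.3 CPM in WT. The log2 fold change was below 0 for all 15 (median -0.56), and 0 passed by edgeR's quasi-likelihood test with Benjamini-Hochberg adjustment (unadjusted p under 0.05 for 5, DESeq2 0). In bulk libraries fewer cells of a type and less RNA per cell cannot be told apart.

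Nin had the highest level of the 7 genes in every library and a level in Lgmn KO that was 2.42 times that in WT. It was at 299.1, 328.9 and 317.4 CPM in Lgmn KO replicates 1, 2 and 4, from 6062, 6435 and 6733 counts. WT replicates 1, 2 and 3 were at 123.4, 125.7 and 140.7 CPM, from 2535, 2716 and 3373 counts. The 2 groups were far apart and each was tight, with a coefficient of variation of 4.76% in Lgmn KO and 7.21% in WT. The fitted log2 fold change was 1.28 (standard error 0.08), which is 2.42-fold. Of the 12546 genes tested, 62 had a log2 fold change at least as high, Nin included, and 94.6% had a lower mean CPM. In all 11 alternative fits the log2 fold change of Nin stayed between 1.24 and 1.34.

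A ratio taken within each library does not depend on how libraries are scaled. Nin had 1.03, 1.04 and 1.09 times the summed counts of the other 6 genes in Lgmn KO replicates 1, 2 and 4. The ratio was 0.423, 0.424 and 0.452 in WT replicates 1, 2 and 3. The other 6 together were at 290.9, 316.5 and 290.4 CPM in Lgmn KO and at 291.7, 296.5 and 311.0 CPM in WT, so their sum overlapped between the groups. By the fit over all genes 1 of the 7 members, Nin, passed an adjusted p of 0.05, where 0.789% of all tested genes did (0.311% higher and 0.478% lower in Lgmn KO). DESeq2 also called 1 of the 7, Nin, where it called 5.67% of the genes it tested. Groups that did not overlap were found for 2 of the 7, Nin and Cep250, and for 23.7% of all tested genes. The median log2 fold change was 0.075 over the 7 members and -0.0021 over all tested genes. Nin itself was among the values that led to the choice, so nothing follows from these counts.

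**Figure D1:**
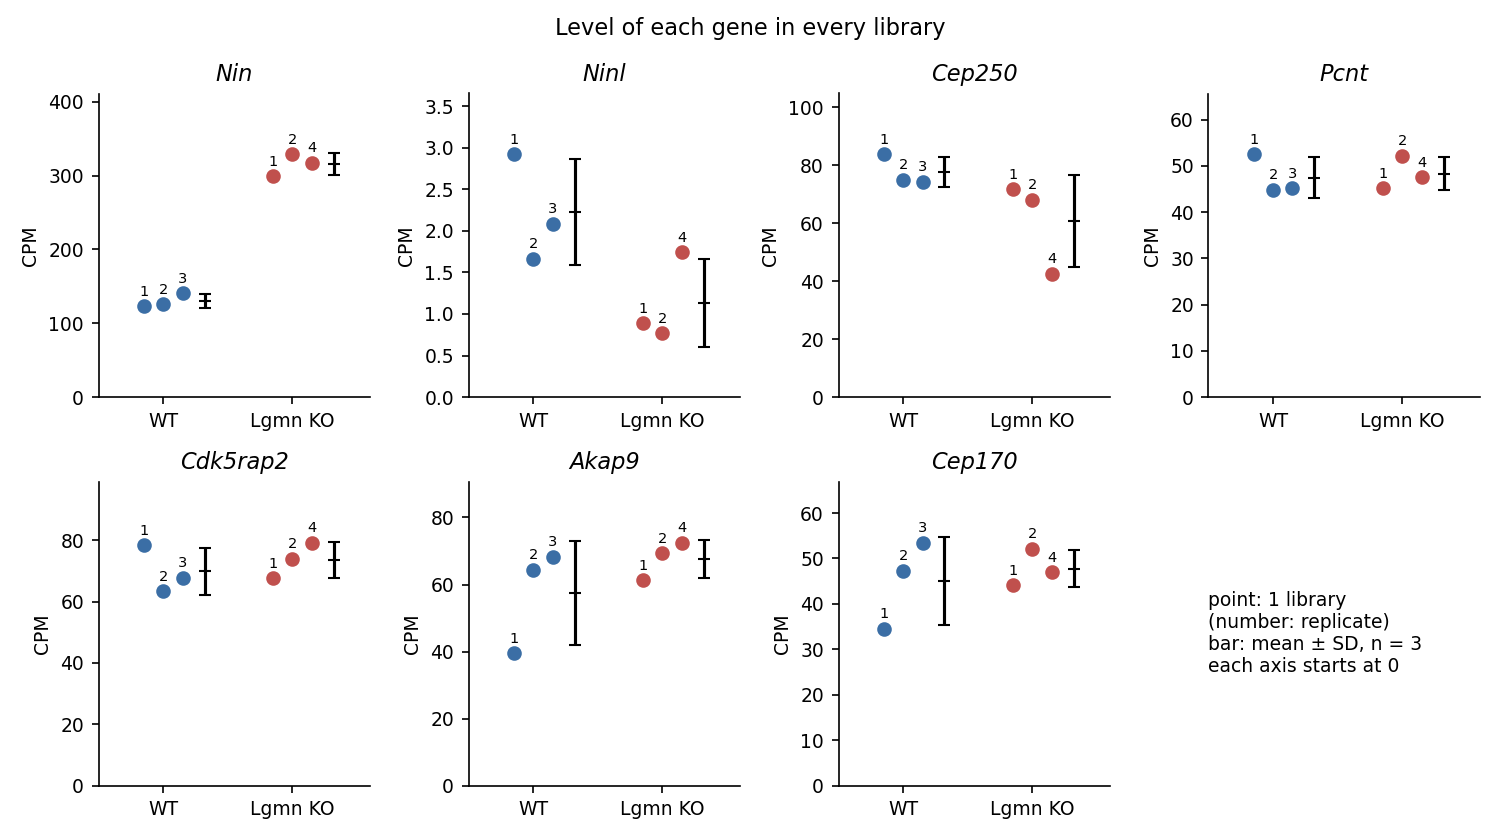
CPM of the 7 genes in each of the 6 libraries, with the replicate number beside each point and the mean ± SD (n = 3) of WT and Lgmn KO. The Lgmn KO points of Nin lie between 299.1 and 328.9 CPM, above the WT points at 123.4 to 140.7 CPM, Cep250 is lowest in Lgmn KO replicate 4, and Akap9 and Cep170 are lowest in WT replicate 1.

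Ninl (ENSMUSG00000068115, chromosome 2, 150934519 to 151039382), which encodes ninein-like protein, a relative of ninein that binds gamma-tubulin complexes, was the rarest member and had a negative fold change. Its levels were 0.888, 0.767 and 1.74 CPM in Lgmn KO replicates 1, 2 and 4, from 18, 15 and 37 counts. In WT replicates 1, 2 and 3 they were 2.92, 1.67 and 2.09 CPM, from 60, 36 and 50 counts. Lgmn KO replicate 4 lay above WT replicate 2, so the groups overlapped. The log2 fold change was -0.96 (standard error 0.39). All libraries were above the limit of the filter, 0.478 CPM, but at 15 to 60 counts each value carries a large counting error. The summed cycling cell markers given above were at 52.7 to 82.3 CPM in Lgmn KO and at 83.6 to 125.2 CPM in WT. Like the T and NK cell, dendritic cell and fibroblast sums, they were lower in each Lgmn KO library than in any WT library. The part of all these markers in the values of Ninl was not tested.

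Cep170 (ENSMUSG00000057335, chromosome 1, 176733653 to 176814067) encodes another protein of the subdistal appendages, the site where ninein sits. It was at 44.2, 52.2 and 47.0 CPM in Lgmn KO replicates 1, 2 and 4, against 34.6, 47.3 and 53.5 CPM in WT replicates 1, 2 and 3. WT held both the lowest and the highest value, and the log2 fold change of 0.08 was smaller than its standard error of 0.16.

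Cep250 (ENSMUSG00000038241, chromosome 2, 155956458 to 155998900) encodes C-Nap1, which docks the fibres that hold the centriole pair together. Its level was 71.8, 68.1 and 42.6 CPM in Lgmn KO replicates 1, 2 and 4, against 83.8, 75.0 and 74.2 CPM in WT replicates 1, 2 and 3. All Lgmn KO libraries lay below all WT libraries, but replicates 1 and 2 by little, and replicate 4 stood apart from both. Its log2 fold change was -0.35 (standard error 0.18), and without Lgmn KO replicate 4 it was -0.16.

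The 3 members that hold or activate gamma-tubulin ring complexes had groups that overlapped. Pcnt (ENSMUSG00000001151, chromosome 10, 76351254 to 76442912) encodes pericentrin, the matrix scaffold that docks these complexes, and was at 45.2, 52.2 and 47.5 CPM in Lgmn KO against 52.5, 44.8 and 45.1 CPM in WT. Its log2 fold change was 0.025 (standard error 0.10). Cdk5rap2 (ENSMUSG00000039298, chromosome 4, 70216856 to 70410443), whose product binds and activates the complexes, was at 67.5, 74.0 and 79.2 CPM in Lgmn KO and at 78.4, 63.3 and 67.8 CPM in WT, a log2 fold change of 0.075 (standard error 0.10). For both genes the group difference was smaller than the spread within a group. The sign for Pcnt was negative in 3 of the 11 alternative fits.

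Akap9 (ENSMUSG00000040407, chromosome 5, 3928054 to 4081310) encodes a large anchor that brings protein kinase A and gamma-tubulin complexes to the centrosome and the Golgi. Its levels were 61.3, 69.3 and 72.5 CPM in Lgmn KO replicates 1, 2 and 4, against 39.6, 64.4 and 68.3 CPM in WT replicates 1, 2 and 3. WT replicate 1 stood alone at the bottom and the other 5 libraries were close together. Its log2 fold change was 0.24 (standard error 0.19), and 0.029 without WT replicate 1. Cep170 was also lowest in WT replicate 1, and its log2 fold change without that library was -0.08.

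Levels of different genes were compared per length. By the deposited FPKM (counts divided by gene length and library total) Nin was highest, at 26.8 ± 1.35 in Lgmn KO and 11.2 ± 0.712 in WT (SD, n = 3 each). In WT, Cep250 at 5.65 ± 0.462, Cdk5rap2 at 5.05 ± 0.624 and Pcnt at 5.01 ± 0.528 FPKM followed, and the ranges of these neighbours in the order overlapped. Below them, with no overlap between neighbours, came Akap9 at 2.23 ± 0.582, Cep170 at 1.26 ± 0.255 and Ninl at 0.303 ± 0.0908 FPKM (SD, n = 3 each). In Lgmn KO the order was Nin, Cdk5rap2 (5.27 ± 0.403), Pcnt (5.04 ± 0.397), Cep250 (4.38 ± 1.16), Akap9 (2.61 ± 0.216), Cep170 (1.32 ± 0.118) and Ninl (0.152 ± 0.0706), all in FPKM. Among these the ranges of Cdk5rap2, Pcnt and Cep250 overlapped between neighbours. Nin made up 58.0%, 58.5% and 60.0% of the summed FPKM of the 7 genes in Lgmn KO replicates 1, 2 and 4, against 34.4%, 36.5% and 38.3% in WT replicates 1, 2 and 3.

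The order in the middle depended on the gene length. The deposited FPKM of Cep170 implies a length of 35977 bases, whereas the exons of all its GENCODE M21 transcripts cover 18049 bases and its longest coding transcript has 6967. The implied length also exceeds the exon cover for Akap9 (25801 against 21350), Cep250 (13809 against 10373) and Cdk5rap2 (13888 against 13012). It is shorter for Nin (11696 against 17005) and Pcnt (9530 against 12154). The share of Nin in the summed FPKM rests on these lengths too. Per kilobase of the longest coding transcript, a length chosen after the data were seen, Cep170 moved from the sixth to the third place in both groups, at 6.86 ± 0.584 CPM per kilobase in Lgmn KO and 6.47 ± 1.38 in WT (SD, n = 3 each). Nin stayed first, at 31.8 ± 1.51 and 13.1 ± 0.945, and Ninl last, at 0.223 ± 0.105 and 0.437 ± 0.125 CPM per kilobase (SD, n = 3 each). Next to Nin in WT stood Cep250, at 9.73 ± 0.664 CPM per kilobase.

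**Figure D2:**
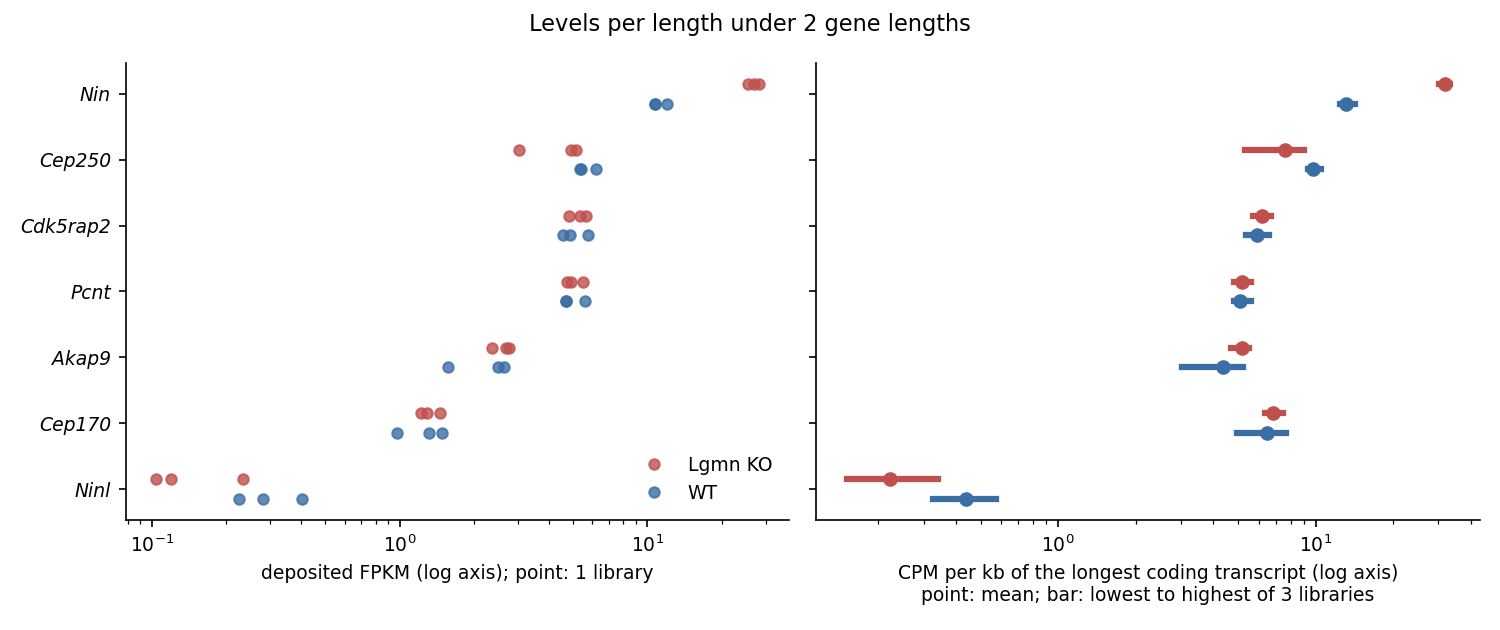
Levels of the 7 genes per length on log axes, as deposited FPKM in each library (left) and as CPM per kilobase of the longest coding transcript with the mean and the range of 3 libraries (right), in Lgmn KO and WT. Nin is highest and Ninl lowest on both scales, while Cep170 is the sixth by FPKM and the third by the other length.

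In the authors' deposited table Nin has a log2 fold change of 1.27 and a q of 1.67e-19 and is the 1 member marked as up. The authors' deposited table gives a q between 0.259 for Ninl and 1 for Pcnt for the other members, and a log2 fold change of -0.37 for Cep250. No source used here says which test gave these values.

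The tested genes next to Nin on chromosome 12 had smaller fold changes of either sign. Within 500 kb the table lists 16 other genes, of which 9 were tested and 5 had 0 counts in all libraries. By edgeR's quasi-likelihood test with Benjamini-Hochberg adjustment 0 of the 9 passed, where 0.789% of all tested genes did. DESeq2 called 0, where it called 5.67% of the genes it tested. An unadjusted p under 0.05 was found for 4 of the 9, beside 17.5% of all tested genes. These were Vcpkmt with a higher level in Lgmn KO and Sav1, Pygl and Tmx1 with a lower one. The largest log2 fold change of the 9, in size, was 0.415. Vcpkmt, a methyltransferase gene 428.4 kb away that was named after its value was seen, had the smallest p, at 17.9, 14.9 and 16.7 CPM in Lgmn KO against 13.0, 12.4 and 12.8 CPM in WT (log2 fold change 0.37, adjusted p = 0.149). Sav1, a scaffold of the Hippo pathway 24.4 kb from Nin, was at 51.9, 50.4 and 51.6 CPM in Lgmn KO against 56.3, 65.0 and 60.7 CPM in WT, a log2 fold change of -0.24 (adjusted p = 0.166). Pygl, the liver form of glycogen phosphorylase, lies 78.9 kb away on the other side and was at 96.1, 70.4 and 83.9 CPM in Lgmn KO against 97.8, 115.2 and 106.8 CPM in WT (log2 fold change -0.35, adjusted p = 0.198). Of the other neighbours, the log2 fold change was -0.35 for Atl1, which shapes the endoplasmic reticulum, 0.21 for the kinase gene Map4k5 and -0.16 for Tmx1, a thioredoxin-related protein. Frmd6, the next tested gene beyond 500 kb, had one of -0.44 (adjusted p = 0.386, edgeR quasi-likelihood test). Lgmn lies 32.3 Mb from Nin on the same chromosome.

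No gene of the table overlaps the interval of Nin in the table. GENCODE M21, which extends Nin to 70113717, lists a noncoding RNA on the opposite strand, Gm48695, whose exons share 80 bases with that extension and 0 with the interval of the table. Other members share exon bases with annotated genes: Ninl shares 146 with Nanp on the same strand (116 counts in all 6 libraries), Cep250 shares 1149 with 6430550D23Rik on the opposite strand (91 counts), Akap9 shares 166 with Cyp51 on the opposite strand (5880 counts) and Cdk5rap2 shares 365 with the pseudogene Ywhaq-ps3 (934 counts). Pcnt shares 379 with 1700094J05Rik on the opposite strand (2 counts) and 115 with AC141477.1 on the same strand, which was not matched to the table, and Cep170 shares 16 with Gm36992 on the opposite strand (0 counts). The sources used here do not say whether the count used strand, and reads in these bases cannot be told apart.

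**Figure D3:**
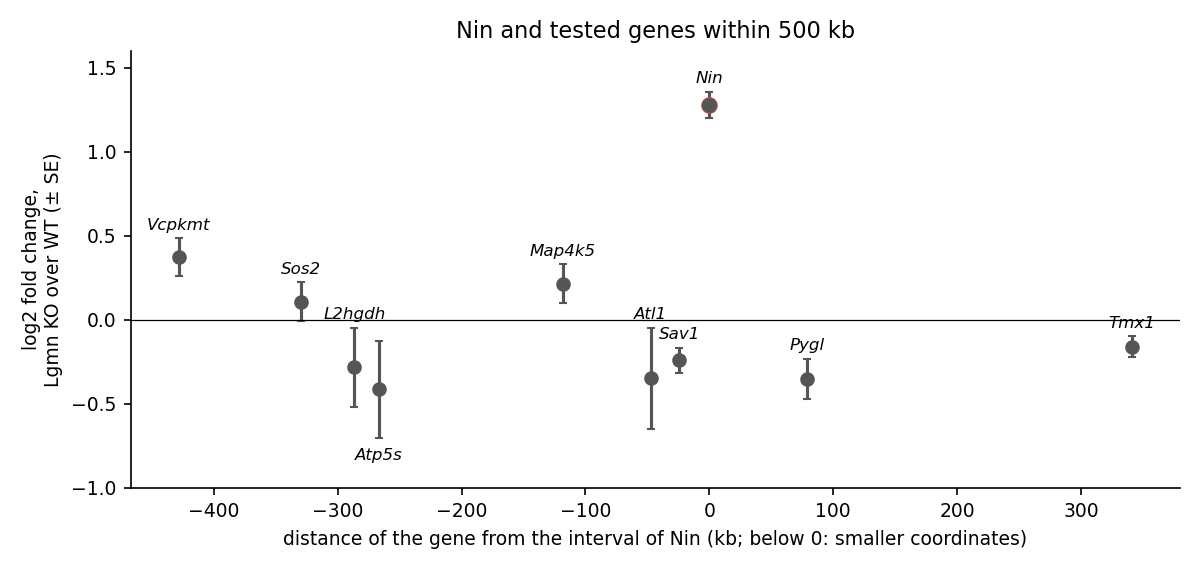
Fitted log2 fold change with its standard error for Nin and the 9 tested genes within 500 kb, by distance in kb from the interval of Nin. Nin is at 1.28 and its neighbours lie within 0.415 of 0.

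Beyond the 7 members, 122 genes of the centrosome and of dynein transport were grouped by role in 8 lists, and 114 of them were tested. By edgeR's quasi-likelihood test with Benjamini-Hochberg adjustment 0 of the 114 were higher and 0 were lower, beside 0.789% called of all tested genes. DESeq2 called 2, beside 5.67% of all the genes it tested. An unadjusted p under 0.05 was found for 16 (8 higher and 8 lower in Lgmn KO), which is 14.0%, beside 17.5% of all tested genes. The libraries of the groups did not overlap for 25 of the 114 (21.9%), beside 23.7% over the table. The median log2 fold change of the 114 was 0.022. By list the share without overlap ran from 8.33% to 45.5%, the highest being 5 of 11 genes of the centrosome linker. The share with an unadjusted p under 0.05 ran from 5.88% to 36.4%, the highest being 4 of the same 11.

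The gamma-tubulin ring complex, which starts microtubules, had 9 tested genes, of which 7 had a positive log2 fold change (median 0.115), with values from -0.07 to 0.27. Tubgcp2, a subunit of the complex, was at 28.7, 29.0 and 30.9 CPM in Lgmn KO against 25.7, 23.3 and 24.4 CPM in WT. These groups did not overlap, but the log2 fold change of 0.27 did not pass (standard error 0.08, adjusted p = 0.158, edgeR quasi-likelihood test). Tubgcp6, a further subunit, had a log2 fold change of 0.18 and Tubgcp3 one of 0.09. Among 17 genes of the pericentriolar matrix and satellites 9 were positive, with a median of 0.013. Akna, which organises microtubules at the subdistal appendages, was at -0.24 on the log2 scale (adjusted p = 0.151, edgeR quasi-likelihood test), and Pcm1, the scaffold of centriolar satellites, at 0.16.

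Of 14 tested genes of the appendages of the mother centriole, where ninein sits, 7 were positive, and the median was 0.001. Cep128, which is needed to build the subdistal appendages, had the smallest p. It was at 20.8, 20.7 and 21.8 CPM in Lgmn KO against 17.0, 13.7 and 14.1 CPM in WT, so its groups did not overlap. The log2 fold change of 0.50 (standard error 0.11) had an adjusted p of 0.0875 by edgeR's quasi-likelihood test and of 0.0156 by DESeq2. Odf2, the base of these appendages and the most abundant gene of the list, had a log2 fold change of 0.06, and Cntrl, which encodes centriolin, one of 0.006. Cep164, a protein of the distal appendages, had one of -0.21 and Sclt1, of the same structure, one of 0.31.

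The 11 tested genes of the linker between the centrioles had a median of -0.097, and 3 were positive. Nek2, the kinase that dissolves the linker before mitosis, was at 0.345, 0.716 and 1.23 CPM in Lgmn KO against 2.04, 2.22 and 1.75 CPM in WT, from 7, 14 and 26 and from 42, 48 and 42 counts. Its groups did not overlap, and the log2 fold change was -1.38 (adjusted p = 0.163, edgeR quasi-likelihood test). Cep68, a linker protein, had a log2 fold change of -0.58, and Stk4, the Hippo kinase and most abundant gene of the list, one of -0.02. Among 18 genes of centriole duplication 8 were positive, with a median of -0.023. Stil, which helps to start a new centriole, had 6, 9 and 19 counts in Lgmn KO against 42, 21 and 26 in WT (log2 fold change -1.29, adjusted p = 0.247). For Ccp110, which caps centrioles, it was 0.51 (adjusted p = 0.138, edgeR quasi-likelihood test). The sum of the cycling cell markers was lower in each Lgmn KO library than in any WT library, though 0 of the 15 passed and 5 had groups that did not overlap. Its part in the values of Nek2 and Stil, which are made in cycling cells, was not tested.

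The remaining lists cover dynein, its adaptors and a mixed set labelled minus ends away from the centrosome. That set holds microtubule and Golgi proteins, not all of which bind minus ends. Of its 12 tested genes 8 were positive, with a median of 0.021. The abundant crosslinker gene Macf1 had a log2 fold change of 0.019, and Clasp2, whose product stabilises microtubules, one of -0.26. Of 20 genes of dynein and dynactin 14 were positive, with a median of 0.046 and values from -0.19 to 0.25. Dync1h1, the motor chain, was at 753.7 ± 38.0 CPM in Lgmn KO against 831.4 ± 62.1 CPM in WT (SD, n = 3 each, log2 fold change -0.14). Actr1b, a subunit of the dynactin filament, was at a log2 fold change of 0.25 (adjusted p = 0.153, edgeR quasi-likelihood test).

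The dynein adaptors, the class to which ninein also belongs, had 13 tested genes with a median of 0.086, and 8 were positive. Spag9, which encodes the adaptor JIP4 of lysosomes, was the most abundant and had the smallest p. It was at 379.2, 367.8 and 384.9 CPM in Lgmn KO against 305.2, 303.2 and 332.4 CPM in WT, and its groups did not overlap. The log2 fold change of 0.27 (standard error 0.07) had an adjusted p of 0.103 by edgeR's quasi-likelihood test and of 0.0228 by DESeq2. Ccdc88b had a log2 fold change of -0.30, and Ccdc88a, which encodes girdin, one of 0.49. Ccdc88a was lowest in WT replicate 1, at 33.9 CPM beside 48.2 and 61.9 CPM in the other two WT libraries.

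**Figure D4:**
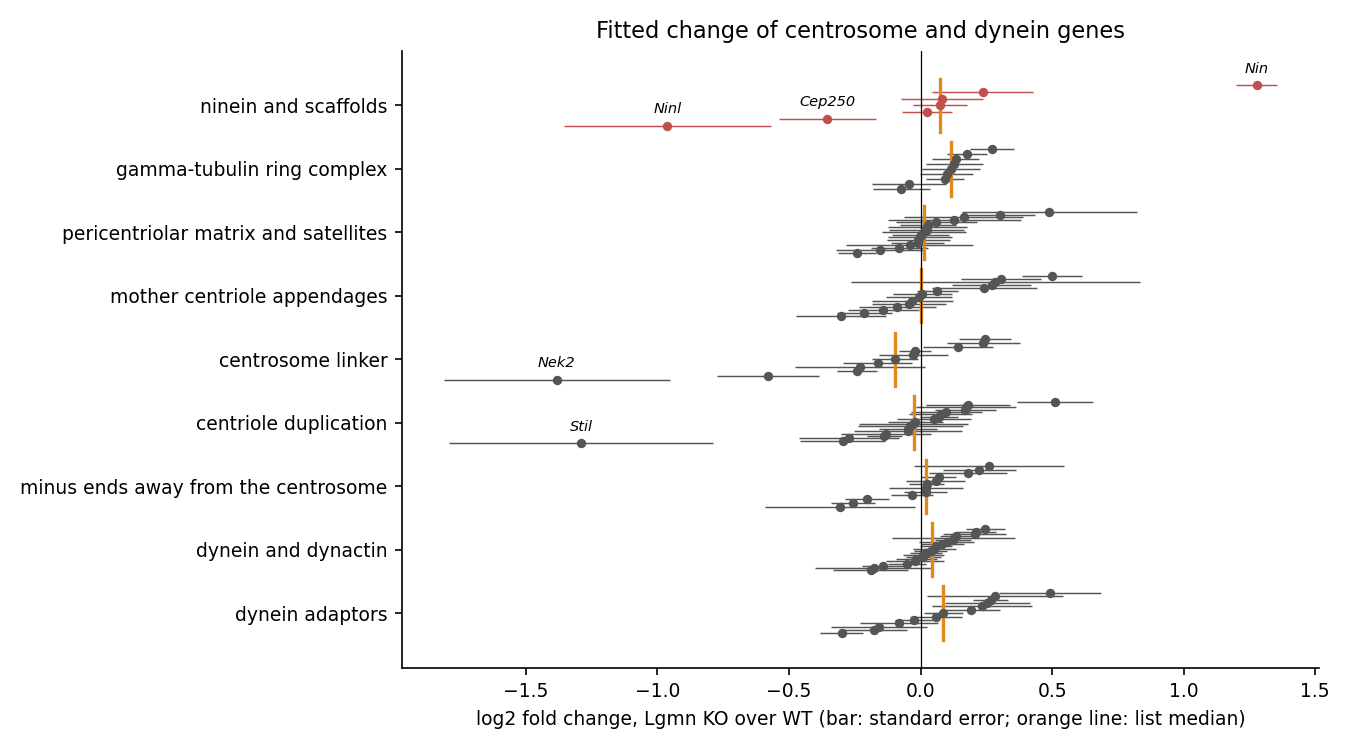
Fitted log2 ratio of Lgmn KO to WT with its standard error for each tested gene of ninein and its scaffolds (red) and of 8 lists of centrosome and dynein genes (grey), with the median of each list in orange. Nin stands at 1.28, while the medians of the 8 lists lie between -0.097 and 0.115 and Nek2 and Stil reach -1.38 and -1.29.

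The genes with the pattern closest to Nin over the 6 libraries were Hist1h1c, Epas1, Cmbl, Tfrc and Slc38a6. Likeness was the root mean square difference of log2 CPM after each gene was centred on its own mean. Predicted genes (Gm, Rik and AC names) and pseudogenes (names with -ps) were left out first. Over the remaining 9125 genes with a mean of at least 5 CPM the median difference was 0.651. The difference was 0.072 for Hist1h1c, a linker histone gene. Hist1h1c was at 60.5, 70.0 and 63.2 CPM in Lgmn KO against 25.1, 26.3 and 32.6 CPM in WT. Like Nin, Hist1h1c, Epas1 and Cmbl were each highest in Lgmn KO replicate 2 and lowest in WT replicate 1. The difference was 0.133 for Epas1, which encodes the hypoxia-inducible factor HIF-2 alpha, and 0.152 for Cmbl, a hydrolase gene. For Tfrc, the transferrin receptor gene, it was 0.186. For Slc38a6, an amino acid transporter gene that is also on chromosome 12, it was 0.187. Since the libraries form 2 groups, the measure weighs a group difference of like size most, and it says nothing of shared function. Of the 5 other members that reached 5 CPM, Akap9 was nearest, in place 1009 with a value of 0.548. Cep170 (place 2634, 0.606), Cdk5rap2 (place 2991, 0.615) and Pcnt (place 3954, 0.638) followed. All of these, Akap9 included, were below the median of 0.651. Cep250 was farthest, in place 8466 with 0.877.

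**Figure D5:**
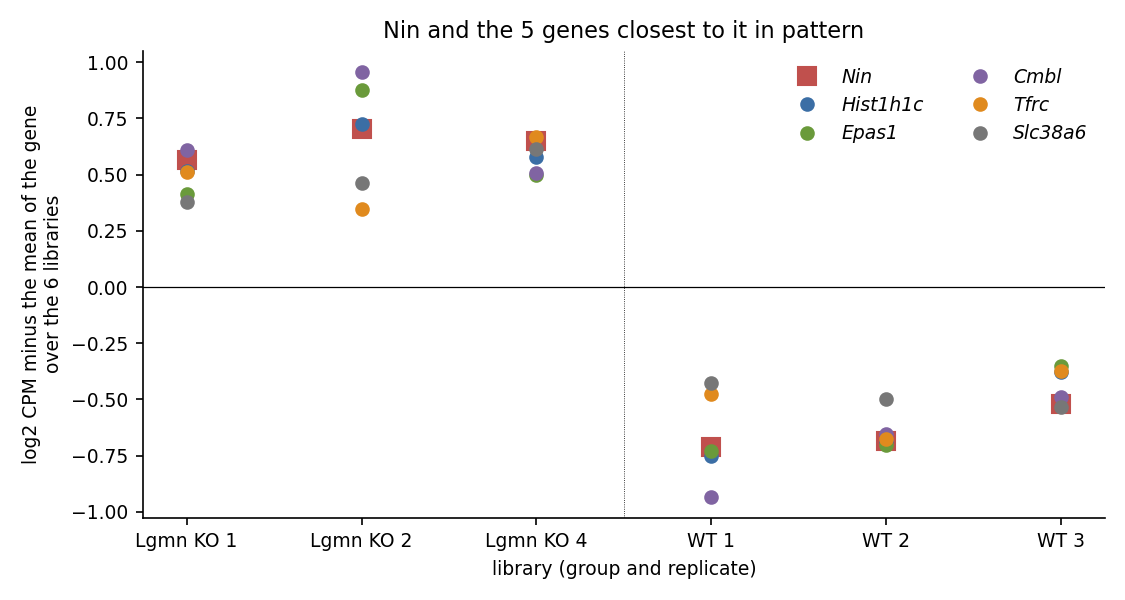
Log2 CPM of Nin (squares) and of the 5 genes closest to it, each minus its mean over the 6 libraries, by library. All 6 genes lie above 0 in the Lgmn KO libraries and below 0 in the WT libraries, and Hist1h1c follows Nin with a root mean square difference of 0.072.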

How the data were processed

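One table of the 6 libraries was used, whose columns carry the sample titles. The table holds, per the file headers, a read count and an FPKM value per gene and library, and the deposited counts are whole numbers with different totals. The deposited FPKM equals count over length over column total in 100% of 9082 genes (at least 100 counts in every library, one length per gene within 0.5 bases). The authors' log2 fold change, p-value and q-value columns were only quoted. HISAT2, TopHat2 2.0.9 and TopHat are named in the submitters' processing notes with no roles, next to the human build hg38, while the positions match mouse GRCm38. The sources used here do not give the counter or its strand setting. FPKM was not tested.

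Counts were filtered with filterByExpr, scaled by TMM and tested with edgeR 4.0.16 (glmQLFit, glmQLFTest) in R 4.3.3 over all genes, Lgmn KO against WT, no covariate, with Benjamini-Hochberg adjustment, calling at an adjusted p of 0.05. CPM use TMM factors, and standard errors come from the F statistic. Alternatives were DESeq2 1.42.0, RLE factors, library size only, no filter, each library left out and a replicate block. The members and lists were chosen with earlier results of these data known. Of 203 list and member genes 200 were matched by symbol (where a symbol had more than 1 row, the row with most counts), 2 by gene ID, and 1 was not found. Named genes are the members, in each list the 3 with the smallest p and the 2 with the highest mean (not all printed), the 3 nearest tested genes on each side of Nin and the 5 most like it. Pcm1, Cep290, Gcc2, Hook3 and Ccdc88a are also given for the low values in WT replicate 1, a choice made after their values were seen. On simulated counts for the same comparison (12384 genes) 85% of the 100 genes with a 2-fold change and 99% of the 99 with a 4-fold change were recovered, and 9 unchanged genes were called. The changed genes were drawn only from those with a mean above 5 CPM. These shares therefore do not cover rarer genes such as Ninl, Nek2 and Stil, nor changes of less than 2-fold in any gene. No protein sequence was used here.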

Additional observations from a re-analysis of the deposited data

How the results depend on the processing

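The number of genes called over the whole table, 99, depended strongly on the processing. It was 782 with DESeq2, 165 with library size only, 318 without a filter on low counts and 39 with the replicate block. Leaving out Lgmn KO replicate 1, 2 or 4 gave 26, 6 and 27 genes, and leaving out WT replicate 1, 2 or 3 gave 639, 35 and 14, so the range was 6 to 639. Among the members the count was 1, Nin, in all 11 alternatives. Nin was among the values that led to the choice of the group, so nothing follows from that count. Of the 8 lists 2 genes were called by DESeq2 (Cep128 and Spag9) and 0 to 2 when 1 library was left out, the 2 being Cep128 and Actr1b without WT replicate 1, and 0 in the other alternatives, where the list genes have no call to lose. The log2 fold change of every member moved by less than 1 SD of its libraries in all alternatives, and its sign changed in 3 for Pcnt and in 1 for Cep170. With 3 libraries a group, leaving 1 out can hardly move a value by that much, so this limit says little about those fits. The values lay between 0.029 and 0.38 for Akap9 and between -0.481 and -0.156 for Cep250. Only numbers 1 and 2 occur in both groups. The deviations of same-numbered libraries from their group means correlated across genes with r = 0.12 and 0.08, which with 2 pairs does not show that the numbers pair the libraries. With the replicate block Nin had a log2 fold change of 1.33 and no other member or list gene was called. Scaling moved the median of all genes by less than 0.1 on the log2 scale. At these depths 3 counts, the most that a count of 0 allows, correspond to 0.125 to 0.153 CPM, and Ninl, Nek2 and Stil, with 6 to 60 counts a library, are among the genes whose values depth limits most.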

Other observations

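WT replicate 1 was the lowest of the 6 libraries for 31 of the 114 tested genes of the 8 centrosome and dynein lists (27.2%), where it was lowest for 17.6% of all tested genes. The other libraries were lowest for 13 to 23 of the 114. The following genes, lowest in WT replicate 1, were named after their values were seen. Pcm1 was at 35.9 CPM in WT replicate 1 and at 56.7 to 69.9 CPM in the other 5 libraries. Gcc2, which encodes a golgin of the trans-Golgi, was at 11.4 CPM there and at 23.2 to 26.9 CPM elsewhere. Cep290, a protein of the ciliary transition zone and satellites, was at 3.505 CPM and at 8.43 to 11.0 CPM elsewhere, and the adaptor gene Hook3 was at 57.1 CPM and at 92.2 to 101.6 CPM elsewhere. Akap9 and Cep170 share this low value, whereas Pcnt, Cdk5rap2 and Cep250 were at 52.5, 78.4 and 83.8 CPM in WT replicate 1, the highest of the 3 WT libraries for each.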
